A study of Mus musculus with 24 samples.

Results

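The genes described here are 85 mouse genes whose signal at 15 h was higher than in untreated cultures under a low concentration of lactacystin and lower under a high one. Lactacystin inhibits the proteasome, the protease complex that degrades ubiquitin-tagged proteins. Members were chosen from the measured values: on the deposited signals, divided by each array's median and taken as log2, the mean of the low-dose arrays at 15 h exceeded the control mean by 0.4 or more, and the mean of the high-dose arrays at 15 h lay below it by 0.5 or more. Of 9550 gene symbols with a signal of 80 or more on at least 3 arrays, 99 passed both thresholds (1.04%), and 14 of these were left out by name because they belong to gene families or are single genes that the rule sets aside (Gstm1, Gstm2, Gstm5, Gstm6, Gstt3, Ifitm1, Ifitm2, Ifitm3, Aqp4, Gfap, Prelp, Col16a1, Thrsp and Rab7l1). The low-dose threshold alone was passed by 4.58% of the symbols and the high-dose threshold alone by 19.6%. The symbols past both were 22.7% of the 437 that passed the first and 5.3% of the 1869 that passed the second.

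The study profiled primary cortical neurons, prepared from the neocortex of Swiss albino mouse fetuses at gestational day 15 or 16 and used on day 5 of culture, on 24 Illumina bead arrays. The low-dose groups (Llac-15h and Llac-24h) received 0.1 µM lactacystin for 15 or 24 h, and the high-dose groups (Hlac-5h, Hlac-8h, Hlac-15h and Hlac-24h) 1 µM for 5, 8, 15 or 24 h. Each of these 6 groups has 3 arrays. The 6 controls (Ctrl) are labelled as not treated; lactacystin was dissolved in dimethyl sulfoxide, and the labels give the controls neither that solvent nor a collection time. The cultures also held glia by their markers: the astrocyte genes Gfap, Aqp4, Aldh1l1 and Slc1a3 and the oligodendrocyte lineage genes Sox10 and Pdgfra were detected on all 6 controls beside the neuronal genes Tubb3, Map2, Dcx, Stmn2, Tbr1 and Gad1. Defining genes of further cell types were mixed. Of the microglial genes, Aif1 was detected on 6 and C1qa on 5 controls, Tyrobp on 1 and Csf1r on no array. Of the fibroblast genes, Dcn was detected on every array, Col1a1 on 1 and Lum and Col1a2 on none. Of the endothelial genes, Cldn5 was detected on 4 arrays, Pecam1 on 1 and Cdh5 on none. In such bulk RNA, fewer cells of a type and less RNA per cell cannot be told apart.

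Several of the members are known from glia. Of the lists used below, the astrocyte list holds 5 members (Id3, Mt1, Mt2, Mt3 and Pla2g7) among its 38 genes tested. The oligodendrocyte lineage list holds 0 among 20 and the neuron list 0 among 19, where the members are 85 of all 10925 genes tested. Counting all lists, of cell types and of roles, 15 of the 85 members are on a list, so the lists do not describe the set as a whole. Metallothioneins are small cysteine-rich proteins that bind zinc and copper, and in brain Mt1 and Mt2 are made mainly by astrocytes. S100 proteins are calcium sensors with a pair of EF hands, and most of those expressed in brain are glial. Astrocytes also supply neurons with lipids, trophic factors and antioxidant capacity, functions to which several of the enzymes and secreted proteins below belong.

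The signal of each gene is given below as log2 intensity after background correction and quantile normalization across the 24 arrays, so 1 unit is a 2-fold step and a value holds only for comparing arrays, not genes. Median raw signal per array ran from 52.2 to 81.0 intensity units (62.6 ± 6.27, SD, n = 24), and 11275 to 12418 probes passed the 0.01 detection level on an array. All 85 members were detected on every Llac-24h array and 80 on every control. On the Hlac-24h arrays 66 were detected on all 3 and 10 on none. For those 10 a fold is given as a bound, counted from the detection level and written "at least". Whether replicate arrays come from separate cultures is not stated, so p-values measure the spread between these samples only, and the number of arrays limits the precision. Current symbols are used: the array table names Ecrg4 as 1500015O10Rik, Sertm1 as 6030405A18, Rxfp3 as BC053073, Dynlrb2 as Dncl2b, Rida as Hrsp12, Mia as Mia1, Dclk3 as BC056929 and Naprt as 9130210N20Rik. It names Cmpk2 as Tyki, Riiad1 as 2310007A19Rik, Id3 as Idb3, Tmem205 as MGC18837, Rsph1 as Tsga2, Adgra1 as Gpr123, Akr1b10 as 2310005E10Rik and Bbs9 as E130103I17Rik. The 78 members placed on the reference lie on 18 chromosomes.

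**Figure D1:**
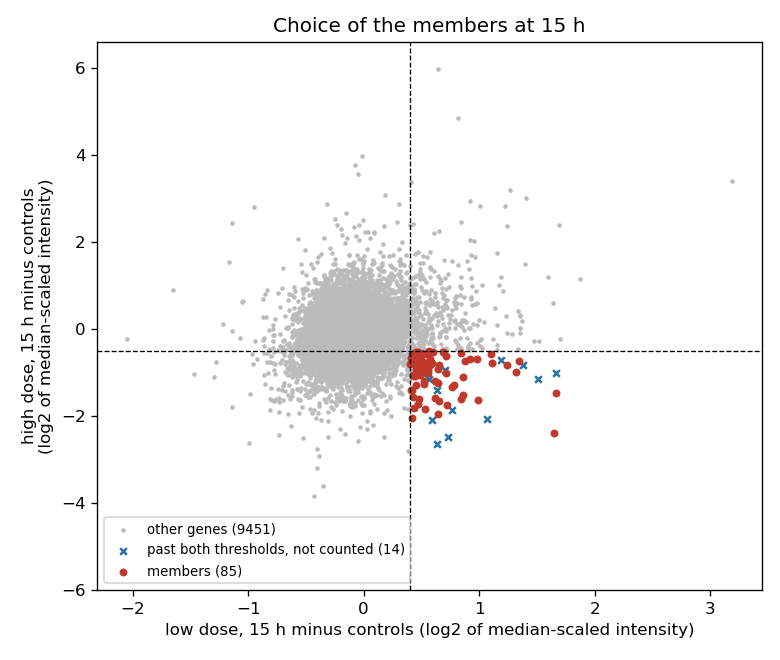
Each point is 1 of 9550 gene symbols, placed by the log2 difference from the control mean at 15 h under 0.1 µM (horizontal axis) and under 1 µM lactacystin (vertical axis). The dashed lines are the thresholds of 0.4 and -0.5; the 85 members (red) fill the lower right corner together with the 14 symbols set aside by name (blue crosses).

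The members lay along the edge of a continuous cloud, as the plot of the low-dose against the high-dose difference shows. Just inside the low-dose threshold were 4932443I19Rik (0.403), Pter (0.410) and Ntsr1 (0.412), and just outside it 2610524H06Rik (0.399), 4930471O16Rik (0.398) and Itpr1 (0.397). Just inside the high-dose threshold were Plekha2 (-0.510), Pml (-0.512) and Ephx2 (-0.517), and just outside it Wbscr27 (-0.487), H2-T9 (-0.483) and Slp (-0.483). The widest span between the doses belonged to 0610041G09Rik, which stood at 1.64 from the controls at the low dose and at -2.40 at the high dose. Next came Ecrg4 (1.66 and -1.46), Cntn2 (0.99 and -1.62), Dbp (0.65 and -1.94), Plekhb1 (0.42 and -2.04), Il11ra1 (0.72 and -1.73), S100a6 (0.85 and -1.61) and Adora2b (0.86 and -1.52). These are the values that chose the genes and are given as a description.

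The controls themselves spread widely along these genes. Over the members, the median difference from the control mean was 0.62 on control replicate 2, 0.29 on replicate 4 and -0.04 on replicate 1. It was -0.26 on replicate 6, -0.28 on replicate 3 and -0.38 on replicate 5, while the median over all genes stayed between -0.018 and 0.006. Each slide held 1 control at place A (replicates 1, 3 and 5) and 1 at place B (replicates 2, 4 and 6). On all 3 slides the control at place B had the higher of these medians. The part of the place in these values was not tested. Control replicate 2 had the highest of the 6 control values in 69 of the 85 members, against 18% of all genes tested, and replicate 5 the lowest in 41, against 25.7%. The Llac-15h arrays lay at 0.70, 0.76 and 0.72, so control replicate 2 came close to them.

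All 3 Llac-15h arrays exceeded all 6 controls in 47 members, where 6.80% of all 10925 genes tested did so. Without control replicate 2 the count was 74, against 10% of all genes. All 3 Hlac-15h arrays lay below all controls in 77 members, against 21.5% of all genes, and the count was also 77 without control replicate 2. Since these arrays chose the members, the counts describe the choice only. Against the 2 controls of its own slide, the Llac-15h array was higher by a median of 0.52 on slide 1, which holds control replicate 2, by 0.75 on slide 2 and by 0.99 on slide 3. The Hlac-15h array differed by medians of -1.46, -0.95 and -0.88 on the same slides, with all 85 members below 0 on each.

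**Figure D2:**
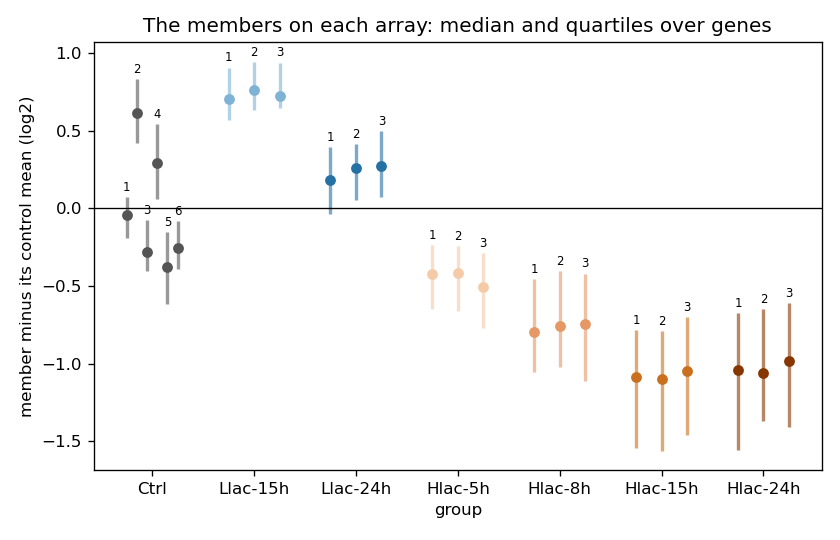
Points give, for each array, the median over the 85 members of the log2 difference from the gene's own control mean, and bars run from the first to the third quartile over members; numbers are replicates. The controls range from -0.38 to 0.62, the 0.1 µM arrays at 15 h lie at 0.70 to 0.76, and the 1 µM arrays lie lower at each time up to 15 h.

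At 1 µM the median member stood lower at each time up to 15 h. At 0.1 µM it stood nearer to the controls at 24 h than at 15 h. The median member differed from its control mean by -0.44 after 5 h at 1 µM, by -0.80 after 8 h, by -1.08 after 15 h and by -1.0 after 24 h. At 0.1 µM it differed by 0.70 after 15 h and by 0.26 after 24 h. The 3 arrays of a treated group were close to each other: the Llac-24h arrays lay at 0.18, 0.26 and 0.28, inside the range of the controls, and the Hlac-5h arrays at -0.42, -0.42 and -0.51, below the lowest control. All of these differences use the same 6 controls, which also entered the choice of the genes. The 15 h arrays of both doses entered it too. Values nearer to the controls at 24 h than at 15 h can therefore follow from the choice alone, which was not tested. The same holds for the single genes below.

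The 24 h arrays entered neither threshold of the rule, though they counted in its signal filter and choice of probe. Without the filter the rule gave the same 85 members. The question these arrays can answer is whether the 2 doses also separated the members at 24 h. The doses did so in most of the members. In limma's fit with Benjamini-Hochberg adjustment over all 10925 genes, 74 of the 85 members were lower in Hlac-24h than in Llac-24h at adjusted p under 0.05, where 26.9% of all genes were lower. None was higher, where 26.7% of all genes were, and none was higher at an unadjusted p under 0.05 either. The remaining 11 members did not pass the test. The median member differed by -1.32 log2 units (all genes -0.016), and the fitted values ran from -3.50 in Adora2b, which no Hlac-24h array detected, to 0.20 in Cpt2, the only member above 0. In 56 members the difference was both called and at least 2-fold in the fitted values, against 7.51% of all genes. Of these 56, 9 were detected on no Hlac-24h array, and for 3 of the 9 (4932443I19Rik, Calml4 and Glycam1) the bound was under 2-fold. In 78 all Hlac-24h arrays lay below all Llac-24h arrays, against 32.3%. Within slides 1, 2 and 3 the medians were -1.30, -1.34 and -1.29, with 83, 84 and 82 members below 0.

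The marker lists did not all run as the members did. Of 33 further astrocyte genes on a marker list, none of them a member, 26 were lower in Hlac-24h than in Llac-24h and 2 (F3 and Gja1) higher, with a median of -1.70. Their summed signal was 57311 to 76071 intensity units on the controls, with the highest value on control replicate 2. It was 70983 to 76459 on the Llac-15h arrays, 63790 to 67206 in Llac-24h, 47324 to 49130 in Hlac-5h, 36946 to 38726 in Hlac-8h, 28885 to 31866 in Hlac-15h and 28375 to 29402 in Hlac-24h. The order of the groups is thus that of the members' medians, except that Hlac-15h and Hlac-24h stand in the other order. The neuronal list fell as well at the high dose, with 13 of 19 genes lower in Hlac-24h than in Llac-24h (median -0.80), but its sum on control replicate 2 (31676) was the lowest of the controls, and the Llac-15h arrays (30853 to 33725) lay below the other 5 controls (36676 or more). The oligodendrocyte lineage list had 12 of 20 genes lower and 2 higher (median -0.49). Its sum was 13755 to 14355 in Llac-15h, within the range of the controls (12934 to 15847), and 5521 to 5953 in Hlac-24h. The 10 further genes on the meningeal, fibroblast and mural list summed to 1763 to 2163 on the controls, 2801 to 3016 in Llac-15h and 1821 to 1936 in Llac-24h. At 1 µM they summed to 1794 to 1880 at 5 h, 1250 to 1278 at 8 h, 1201 to 1256 at 15 h and 1577 to 1608 at 24 h. On this sum the Llac-15h arrays lay above all controls and the high-dose arrays from 8 h on below them. Single genes of the list did not all do so: the mean of Dcn was 8.86 log2 units on the controls and 7.52 in Llac-15h. At 24 h 4 of the genes were lower in Hlac-24h than in Llac-24h and 2 higher (median -0.088). The 4 further ependymal and choroid genes summed to 631 to 802 on the controls and to 762, 1548 and 1714 on the Llac-15h arrays. Most of this sum is Ttr, with a mean log2 intensity of 9.18 on the controls and 10.15 in Llac-15h. Foxj1 stood at 4.86 and 5.24. The 8 microglial genes summed to 592 to 870 on the controls, 846 to 976 in Llac-15h, 590 to 663 in Llac-24h and 1194 to 1372 in Hlac-24h. Of 18 progenitor and Notch genes 10 were lower in Hlac-24h than in Llac-24h and 5 higher (median -0.42). Their sum was higher in Hlac-24h (12528 to 13989) than in Llac-24h (9203 to 9830). It was 9471 to 11104 on the controls and 12853 to 14123 in Llac-15h. Gfap, Aqp4 and Gstm1 of the astrocyte list and Prelp of the meningeal list are among the genes set aside by name from the rule. They passed both of its thresholds at 15 h, so the 15 h sums of these 2 lists hold genes with the pattern of the rule. The part of these markers in the members' values was not tested.

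Roles were assigned after the values were seen. Of all 85 members 74 were lower in Hlac-24h than in Llac-24h, against 26.9% of all genes. The counts by role below thus describe these members only and are no result about a role. All 13 genes for receptors and other surface proteins passed the test as lower at 24 h, with a median of -1.91. Adora2b encodes the adenosine A2B receptor, which couples to cyclic AMP. Its log2 intensity was 8.14, 8.18 and 8.17 in Llac-15h and 8.20, 7.94 and 8.01 in Llac-24h. The high-dose arrays gave 6.43, 6.31 and 6.19 at 5 h, 6.10, 6.03 and 6.38 at 8 h, 5.13, 4.76 and 4.57 at 15 h and 4.54, 4.43 and 4.68 at 24 h. Controls lay between 6.05 and 8.58 (median 6.44). Control replicates 2 and 4 stood at the level of the low-dose arrays and the other 4 controls near the Hlac-5h level. It was detected on no Hlac-15h or Hlac-24h array, and the dose difference at 24 h was -3.50 ± 0.46 (SE, adjusted p = 1.17e-06), at least 8.36-fold. Between 8 and 24 h at 1 µM it fell by at least 2.27-fold (adjusted p = 0.00704).

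Cntn2 encodes contactin-2, an adhesion molecule of axons and glia. It was 10.33, 10.23 and 10.34 in Llac-15h and 9.67, 9.82 and 9.77 in Llac-24h. In the high-dose groups the values were 8.73, 8.82 and 9.19 at 5 h, 8.39, 8.21 and 8.53 at 8 h, 7.32, 7.59 and 7.40 at 15 h and 7.52, 7.45 and 7.60 at 24 h. The lowest control was 8.29, the highest 10.20 and their median 8.92. The Llac-15h arrays lay barely above control replicate 2, while the Hlac-15h and Hlac-24h arrays lay below all controls. The dose difference at 24 h was -2.23 ± 0.31 (adjusted p = 2.51e-06). Il11ra1, a receptor for interleukin 11, was 10.14, 10.37 and 10.21 in Llac-15h and 9.45, 9.72 and 9.79 in Llac-24h. Under 1 µM 8.83, 8.85 and 8.97 were measured at 5 h, 8.62, 8.60 and 8.70 at 8 h, 7.41, 7.49 and 7.82 at 15 h and 7.40, 7.85 and 7.80 at 24 h. Untreated cultures gave 8.88 to 10.23, with 9.21 as the median. The groups of the 2 doses did not overlap at 15 or 24 h. The difference at 24 h was -1.97 ± 0.23 (adjusted p = 2.90e-07), and Il11ra2 differed by -1.91 ± 0.24 (adjusted p = 5.57e-07). Il11ra1 and Il11ra2 are near-identical copies, so their probes may share signal and count as 1 observation at best.

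The neurotensin receptor Ntsr1 differed by -2.24 ± 0.30 (adjusted p = 1.54e-06) and the relaxin-3 receptor Rxfp3 by -2.04 ± 0.25 (adjusted p = 4.42e-07). The membrane protein gene Sertm1 differed by -2.52 ± 0.23 (adjusted p = 7.19e-09). The neonatal Fc receptor gene Fcgrt, the FGF receptor-like gene Fgfrl1, the nicotinic receptor modulator Lynx1, the ectoenzyme family gene Enpp5, the adhesion receptor gene Adgra1 and the myelin gene Pmp22 lay between -1.70 (Enpp5) and -0.49 (Adgra1).

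Of 13 genes for secreted proteins 12 were lower at 24 h, with a median of -1.61. Ntf3 encodes the neurotrophin NT-3, a survival factor for neurons. It was 7.19, 6.90 and 7.07 in Llac-15h and 7.52, 7.42 and 7.43 in Llac-24h. Its Hlac arrays read 5.5, 5.41 and 4.90 at 5 h, 5.83, 5.45 and 5.09 at 8 h, 5.20, 5.26 and 4.38 at 15 h and 4.82, 4.94 and 4.63 at 24 h. The 6 controls ran from 5.42 to 7.40 with a median of 6.17. At the low dose Ntf3 stood higher at 24 h than at 15 h on every array, and the Llac-24h arrays lay above all controls. None of the Hlac-24h arrays detected it, and the dose difference was -2.66 ± 0.37 (adjusted p = 2.77e-06), at least 5.54-fold. Ecrg4, which encodes the secreted peptide precursor augurin and is strongly expressed in choroid plexus, was 9.56, 9.66 and 9.48 in Llac-15h and 7.79, 8.21 and 8.06 in Llac-24h. At 1 µM it measured 6.92, 6.75 and 6.83 at 5 h, 6.37, 6.58 and 6.46 at 8 h, 5.90, 5.68 and 5.86 at 15 h and 5.44, 5.43 and 5.64 at 24 h. Controls lay between 6.69 and 8.68 (median 7.29). Control replicates 2 and 4 (8.68 and 8.63) stood apart from the other controls, and the Llac-15h arrays lay above all of them. The 24 h difference was -2.52 ± 0.35 (adjusted p = 3.02e-06).

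Dkk3, of the Dickkopf family of secreted glycoproteins, differed by -2.38 ± 0.18 (adjusted p = 3.17e-10), Sostdc1, an antagonist of BMP and WNT signals, by -2.21 ± 0.32 (adjusted p = 4.73e-06), and the growth factor gene Fgf1 by -2.15 ± 0.23 (adjusted p = 8.96e-08). Dkk3 fell by 1.21 and Sostdc1 by 1.28 between 8 and 24 h at 1 µM (adjusted p = 1.39e-05 and 0.00300). Mia, Olfml1, the insulin-like growth factor binding protein genes Igfbp5 and Igfbp7, Sned1, a matrix protein gene, and Glycam1, a mucin-like ligand of L-selectin, lay between -1.69 (Mia) and -0.91 (Igfbp5). Olfml1 (at least 2.24-fold) and Glycam1 (at least 1.49-fold) were detected on no Hlac-24h array. Angptl4, an inhibitor of lipoprotein lipase, differed by -0.69 ± 0.34 (adjusted p = 0.0977) and did not pass. Ptgds, which makes prostaglandin D2 and is abundant in leptomeninges, was 7.49, 7.73 and 7.59 in Llac-15h and 6.85, 6.72 and 6.88 in Llac-24h. The high-dose arrays gave 6.42, 6.6 and 6.59 at 5 h, 6.15, 6.25 and 5.93 at 8 h, 5.62, 5.80 and 5.80 at 15 h and 6.11, 6.20 and 6.16 at 24 h. The lowest control was 6.56, the highest 7.66 and their median 6.80. Control replicate 2 stood among the Llac-15h arrays and apart from the other controls. The 24 h difference of Ptgds was -0.66 ± 0.18 (adjusted p = 0.00413).

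**Figure D3:**
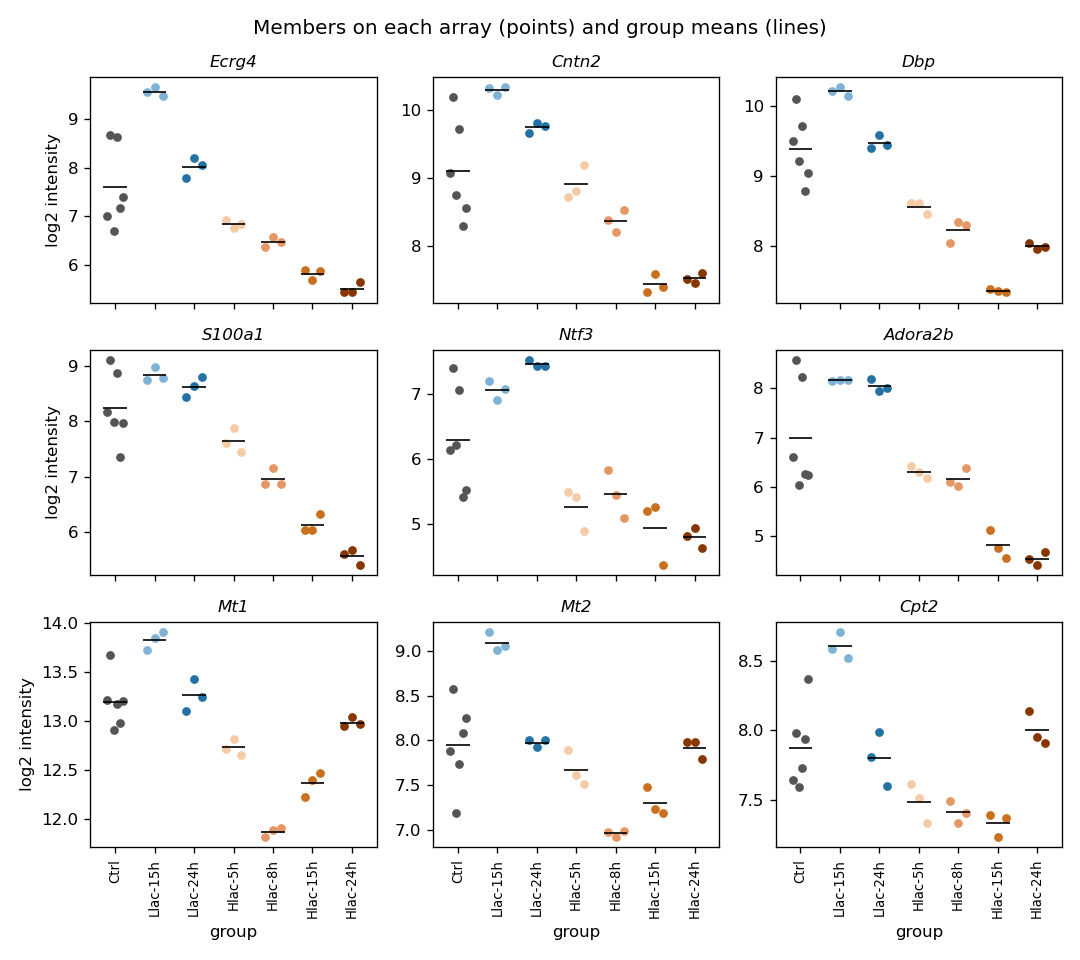
Log2 intensity (vertical axis) of 9 members on each array, by group; points are arrays and black lines group means. Adora2b, S100a1 and Ecrg4 step down with time at 1 µM, whereas Mt1, Mt2 and Cpt2 are lowest at 8 or 15 h and at 24 h differ from the Llac-24h mean by -0.28, -0.06 and 0.20.

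All 4 genes for calcium-binding proteins were lower at 24 h. S100a1 was 8.75, 8.98 and 8.78 in Llac-15h and 8.43, 8.63 and 8.80 in Llac-24h. In the high-dose groups the values were 7.61, 7.87 and 7.44 at 5 h, 6.87, 7.16 and 6.86 at 8 h, 6.04, 6.03 and 6.32 at 15 h and 5.60, 5.68 and 5.41 at 24 h. Untreated cultures gave 7.36 to 9.11, with 8.07 as the median. The high-dose groups stepped down at each time without overlap, and Hlac-5h overlapped the controls. The dose difference at 24 h was -3.06 ± 0.28 (adjusted p = 7.95e-09), the largest among the members detected in Hlac-24h, and the fall from 8 to 24 h was also called (-1.40, adjusted p = 4.27e-04). S100a13 was 7.19, 7.16 and 7.46 in Llac-15h and 7.37, 6.95 and 6.95 in Llac-24h. Under 1 µM 6.05, 6.03 and 5.66 were measured at 5 h, 4.79, 5.36 and 4.84 at 8 h, 4.85, 4.94 and 5.02 at 15 h and 4.41, 4.94 and 4.84 at 24 h. The 6 controls ran from 5.67 to 7.48 with a median of 6.36. It was detected on 1 Hlac-8h array and no Hlac-15h or Hlac-24h array and did not pass the test from 8 to 24 h (adjusted p = 0.529), and the dose difference at 24 h was -2.36 ± 0.30 (adjusted p = 8.89e-07), at least 4.29-fold.

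S100a6, which is also found in meninges and reactive glia, was 10.54, 10.54 and 10.82 in Llac-15h and 9.77, 9.89 and 10 in Llac-24h. Its Hlac arrays read 8.81, 8.88 and 9.05 at 5 h, 8.14, 8.15 and 8.23 at 8 h, 7.97, 7.86 and 8.08 at 15 h and 8.41, 8.59 and 8.49 at 24 h. Controls lay between 8.93 and 10.50 (median 9.46). The lowest values came at 15 h, and the 24 h arrays stood above them without overlap. The 24 h dose difference was -1.39 ± 0.24 (adjusted p = 3.61e-05), and Calml4, a calmodulin-like gene, differed by -1.38 ± 0.25 (adjusted p = 7.66e-05), at least 1.96-fold. Of 7 further genes on a list of S100 proteins and annexins, 3 were lower in Hlac-24h and 3 higher.

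S100a1 and S100a13 are neighbours on chromosome 3 and start 105 bases apart on opposite strands, so the 300-base promoter window of one holds the start of the other. The window of S100a13 is printed because these are the only directly neighbouring members besides the metallothioneins. It covers the start of the gene and the bases before it, on the plus strand (chr3:90514185-90514484, GRCm38.p6, RefSeq), and capitals mark the stretch from the start of S100a1 to that of S100a13.
S100a13: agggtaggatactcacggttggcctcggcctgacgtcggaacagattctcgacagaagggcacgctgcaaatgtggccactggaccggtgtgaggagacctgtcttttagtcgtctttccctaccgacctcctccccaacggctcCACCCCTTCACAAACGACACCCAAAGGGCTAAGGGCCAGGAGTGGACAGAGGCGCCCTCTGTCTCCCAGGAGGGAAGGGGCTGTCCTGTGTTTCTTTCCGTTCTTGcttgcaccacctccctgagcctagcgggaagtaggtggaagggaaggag

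Mt1, Mt2 and Mt3 lie next to each other on chromosome 8 in the order Mt3, Mt2, Mt1. Mt3, a brain form that binds zinc, was 11.19, 11.35 and 11.41 in Llac-15h and 11.11, 11.19 and 11.15 in Llac-24h. At 1 µM it measured 9.97, 10.02 and 10.13 at 5 h, 9.70, 9.80 and 9.71 at 8 h, 8.71, 8.69 and 8.97 at 15 h and 9.01, 9.32 and 9.20 at 24 h. The lowest control was 9.95, the highest 11.38 and their median 10.54. The high-dose arrays went down to 15 h and stayed below all controls at 24 h. The dose difference at 24 h was -1.97 ± 0.24 (adjusted p = 3.69e-07), and from 8 to 24 h Mt3 differed by -0.56 ± 0.24 (adjusted p = 0.0635), which did not pass (adjusted p = 0.0450 with the slide as a replicate block).

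Mt1 was 13.73, 13.85 and 13.91 in Llac-15h and 13.11, 13.43 and 13.25 in Llac-24h. The high-dose arrays gave 12.72, 12.82 and 12.66 at 5 h, 11.82, 11.89 and 11.91 at 8 h, 12.23, 12.40 and 12.47 at 15 h and 12.95, 13.04 and 12.97 at 24 h. Untreated cultures gave 12.91 to 13.68, with 13.20 as the median. Its lowest arrays were those at 8 h, and at 24 h it stood within the range of the controls. Mt1 fell from 5 to 8 h (-0.86 ± 0.14, adjusted p = 2.45e-04) and rose from 8 to 24 h (1.12 ± 0.14, adjusted p = 1.29e-06). Mt2 was 9.21, 9.01 and 9.06 in Llac-15h and 8.00, 7.92 and 8.00 in Llac-24h. In the high-dose groups the values were 7.89, 7.61 and 7.51 at 5 h, 6.98, 6.92 and 6.99 at 8 h, 7.48, 7.23 and 7.19 at 15 h and 7.98, 7.98 and 7.79 at 24 h. The 6 controls ran from 7.19 to 8.57 with a median of 7.98. Mt2 fell from 5 to 8 h (-0.70 ± 0.21, adjusted p = 0.0246) and rose from 8 to 24 h (0.95 ± 0.21, adjusted p = 0.00104). The 2 steps share the Hlac-8h arrays. Neither gene passed the test between the doses at 24 h: Mt1 differed by -0.28 ± 0.14 (adjusted p = 0.0966), with a 95% interval from -0.56 to 0.01, and Mt2 by -0.06 ± 0.21 (adjusted p = 0.848), from -0.49 to 0.38. Whether Mt3 differs from Mt1 and Mt2 in its step from 8 to 24 h was not tested.

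The promoter windows of the 3 genes are shown because the genes are neighbours and because metal response elements, which bind the zinc-sensing factor MTF-1, are known to drive Mt1 and Mt2. Capitals mark each match on either strand to the core of that element, searched in 2 spellings, TGCACNC and TGCGCNC. The windows lie on the plus strand of chromosome 8 at chr8:94178839-94179138 (Mt1), chr8:94172368-94172667 (Mt2) and chr8:94152357-94152656 (Mt3) in GRCm38.p6 (RefSeq).
Mt1: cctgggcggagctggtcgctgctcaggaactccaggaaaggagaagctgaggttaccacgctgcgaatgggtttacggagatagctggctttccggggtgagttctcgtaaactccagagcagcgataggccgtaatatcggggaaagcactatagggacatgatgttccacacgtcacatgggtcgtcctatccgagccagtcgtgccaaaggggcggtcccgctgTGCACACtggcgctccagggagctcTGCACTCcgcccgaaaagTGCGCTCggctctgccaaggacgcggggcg
Mt2: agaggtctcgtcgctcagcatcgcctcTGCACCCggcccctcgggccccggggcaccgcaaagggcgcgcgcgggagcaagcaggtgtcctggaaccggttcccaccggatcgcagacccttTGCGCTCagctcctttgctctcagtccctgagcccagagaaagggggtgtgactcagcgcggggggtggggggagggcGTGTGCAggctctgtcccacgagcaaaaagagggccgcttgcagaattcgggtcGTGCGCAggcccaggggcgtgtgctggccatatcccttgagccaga
Mt3: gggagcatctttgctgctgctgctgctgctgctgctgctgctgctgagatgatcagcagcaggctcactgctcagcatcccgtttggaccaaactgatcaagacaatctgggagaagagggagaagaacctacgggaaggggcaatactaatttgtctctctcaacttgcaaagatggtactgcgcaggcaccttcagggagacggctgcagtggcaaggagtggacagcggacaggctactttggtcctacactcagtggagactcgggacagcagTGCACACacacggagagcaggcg
The Mt1 window held 3 matches, the Mt2 window 4 and the Mt3 window 1. Among all 27025 genes with a promoter in the table, 14.2% held the first spelling and 17% the second, and among the 58 members with a promoter 15.5% and 20.7% did.

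The shares of other motifs are given for the same 58 members beside those of all 27025 genes, without a test. Both strands were read, and each motif was counted on its own, so that matches of different motifs can share bases. The short site of nuclear factor I (TTGGCA), a factor family of astrocyte development, was in 12.1% of the members and 16.1% of all genes, and the STAT motif (TTCNNNGAA) in 15.5% and 9.6%. A pair of heat shock units (GAANNTTC) was in 12.1% and 9.0%, the antioxidant response core (TGANNNNGC) in 53.4% and 45.0%, and the E-box CACGTG in 12.1% and 8.1%. The short nuclear receptor site (GGTCA) was in 37.9% and 43.6%. The D-box (TTATGTAA) was in 1 member (1.7%) and in 1.1% of all genes. The TATA box (TATAAA) was in 2 members (3.4%) and in 15.7% of all genes. A match or its absence describes these letters in this window only.

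Of 12 genes of lipid metabolism 10 were lower at 24 h, with a median of -1.22. Acadm, the medium-chain acyl-CoA dehydrogenase of mitochondrial fatty acid oxidation, was 9.60, 9.63 and 9.67 in Llac-15h and 9.36, 9.34 and 9.0 in Llac-24h. Under 1 µM 8.63, 8.65 and 8.25 were measured at 5 h, 8.68, 8.62 and 8.63 at 8 h, 8.10, 8.25 and 8.32 at 15 h and 8.47, 8.51 and 8.44 at 24 h. Controls lay between 8.64 and 9.29 (median 8.92). The Llac-15h arrays were above all controls, and the Hlac-15h and Hlac-24h arrays below them. Acadm differed by -0.76 ± 0.15 (adjusted p = 1.30e-04) at 24 h. Cpt2, the inner-membrane carnitine palmitoyltransferase of the same pathway, was 8.59, 8.71 and 8.52 in Llac-15h and 7.81, 7.99 and 7.60 in Llac-24h. Its Hlac arrays read 7.61, 7.51 and 7.33 at 5 h, 7.49, 7.33 and 7.40 at 8 h, 7.39, 7.23 and 7.37 at 15 h and 8.14, 7.95 and 7.91 at 24 h. The lowest control was 7.59, the highest 8.37 and their median 7.83. At 24 h the high-dose arrays were back among the controls. Cpt2 rose by 0.59 from 8 to 24 h (adjusted p = 0.00332) and differed between the doses at 24 h by 0.20 ± 0.15 (adjusted p = 0.284), with a 95% interval from -0.11 to 0.51.

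Pla2g7, a phospholipase that inactivates platelet-activating factor, was 8.60, 8.56 and 7.71 in Llac-15h and 8.01, 8.17 and 7.63 in Llac-24h. At 1 µM it measured 7.28, 6.78 and 6.58 at 5 h, 6.86, 7.20 and 6.41 at 8 h, 6.63, 6.19 and 5.61 at 15 h and 6.06, 6.35 and 5.66 at 24 h. Untreated cultures gave 7.16 to 8.20, with 7.66 as the median. On replicate 3 it was the lowest of its group in all 6 treated groups. The 24 h difference was -1.91 ± 0.29 (adjusted p = 8.81e-06). The phosphodiesterase gene Gdpd2 (-2.10), the lipid transfer protein gene Stard7 (-1.55), the isomerase gene Ech1 (-1.32), the oxysterol hydroxylase gene Cyp7b1 (-1.22), the soluble epoxide hydrolase gene Ephx2 (-1.22), the phosphodiesterase gene Smpdl3a (-1.05) and Ebpl (-0.43) were lower too. Hsd3b7, an enzyme of bile acid synthesis that stood 1.24 above the controls at 15 h of the low dose on the rule scale, differed by -0.31 ± 0.18 (adjusted p = 0.167) and did not pass.

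Among 14 other enzymes and heme proteins 11 were lower at 24 h. Rida, a deaminase, had the largest difference (-1.78 ± 0.27, adjusted p = 7.61e-06) and had already fallen by 0.88 from 5 to 8 h (adjusted p = 0.0259). Naprt, of NAD synthesis, differed by -1.59, Glo1, which clears methylglyoxal, by -1.33, and the nicotinamide methyltransferase Nnmt by -1.28. The nucleotide kinase gene Cmpk2 (-1.32), the carbonic anhydrase gene Car3 (-1.30), the GMP reductase gene Gmpr (-1.25), Serhl (-1.36), the glucose-6-phosphatase gene G6pc3 (-0.74), Pter (-0.54) and Urod of heme synthesis (-0.36) were lower. The peroxiredoxin gene Prdx6 differed by -0.46 ± 0.22 (adjusted p = 0.0920) and passed with the slide as a replicate block (adjusted p = 0.0187). The aldo-keto reductase gene Akr1b10 (-0.33 ± 0.15, adjusted p = 0.0772) and the heme-binding protein gene Hebp1 (-0.12 ± 0.19, adjusted p = 0.641) did not pass. Hebp1 rose from 8 to 24 h at 1 µM (1.16 ± 0.19, adjusted p = 4.89e-05).

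All 5 transcription regulators were lower at 24 h. Dbp, a PAR bZIP factor and output gene of the circadian clock, was 10.21, 10.26 and 10.14 in Llac-15h and 9.39, 9.58 and 9.44 in Llac-24h. In the high-dose groups the values were 8.61, 8.61 and 8.46 at 5 h, 8.04, 8.34 and 8.30 at 8 h, 7.38, 7.36 and 7.34 at 15 h and 8.04, 7.96 and 7.98 at 24 h. Controls lay between 8.78 and 10.10 (median 9.35). The Hlac-15h arrays were the lowest of all groups, and the Hlac-24h arrays stood above them without overlap. Dbp differed by -1.48 ± 0.21 (adjusted p = 3.08e-06) between the doses at 24 h. Of the 10 further circadian genes tested, 6 were higher in that comparison and 4 did not pass, with a median of 0.77. Id3, an inhibitor of helix-loop-helix factors that astrocytes express, was 7.30, 7.41 and 7.53 in Llac-15h and 7.0, 7.16 and 7.34 in Llac-24h. Under 1 µM 7.21, 6.99 and 6.88 were measured at 5 h, 7.21, 7.25 and 7.17 at 8 h, 6.10, 5.92 and 6.08 at 15 h and 6.34, 6.32 and 6.23 at 24 h. The lowest control was 6.47, the highest 7.07 and their median 6.90. Its 5 h and 8 h arrays, from 6.88 to 7.25, lay near or above the control median, and its 15 h and 24 h arrays below all controls. It differed by -0.87 ± 0.14 (adjusted p = 2.70e-05) between the doses and fell by 0.92 from 8 to 24 h (adjusted p = 3.12e-05). The homeobox gene Msx1 (-1.56), the ciliogenic factor gene Rfx2 (-1.35) and Pml, of nuclear bodies (-0.40), completed the group.

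Of 4 genes of cilia and the axoneme 3 were lower. Dynlrb2, a dynein light chain, was 8.28, 8.54 and 8.43 in Llac-15h and 7.05, 7.23 and 7.33 in Llac-24h. Its Hlac arrays read 5.92, 6.08 and 5.82 at 5 h, 5.43, 5.47 and 5.27 at 8 h, 5.24, 5.44 and 5.5 at 15 h and 5.29, 5.19 and 5.34 at 24 h. Untreated cultures gave 5.97 to 7.62, with 6.57 as the median. The Llac-15h arrays lay above all controls, and the high-dose arrays from 8 h on below all of them. Dynlrb2 differed by -1.93 ± 0.27 (adjusted p = 3.51e-06) at 24 h. Rsph1, of the radial spoke of motile cilia, was 9.23, 9.48 and 9.27 in Llac-15h and 8.28, 8.15 and 8.55 in Llac-24h. At 1 µM it measured 8.13, 8.18 and 8.30 at 5 h, 7.76, 7.82 and 7.77 at 8 h, 7.69, 7.77 and 7.93 at 15 h and 7.61, 7.65 and 7.76 at 24 h. The 6 controls ran from 7.84 to 9.05 with a median of 8.64. Here control replicate 1, not replicate 2, was the highest control. The difference was -0.65 ± 0.20 (adjusted p = 0.00816), and Meig1, known from the mouse testis, differed by -2.0 ± 0.17 (adjusted p = 3.34e-09). Bbs9, of the BBSome, was 8.72, 8.71 and 8.66 in Llac-15h and 8.02, 7.96 and 7.88 in Llac-24h. The high-dose arrays gave 7.81, 7.49 and 7.48 at 5 h, 7.95, 7.71 and 7.70 at 8 h, 7.71, 7.56 and 7.47 at 15 h and 8.04, 7.94 and 7.78 at 24 h. Controls lay between 7.85 and 8.39 (median 8.15). It overlapped between the doses at 24 h and differed by -0.03 ± 0.13 (adjusted p = 0.849), with a 95% interval from -0.30 to 0.23. Dynlrb2 and Rsph1 are also on the ependymal and choroid list, whose 4 other tested genes did not pass at 24 h (median -0.058). Of the other defining genes, Foxj1 was detected on 1 control and 2 Llac-15h arrays, and Ttr on every array.

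Among 7 genes of signalling, the cytoskeleton and membrane traffic 6 were lower. Plekhb1, a pleckstrin homology protein, was 8.59, 8.27 and 8.32 in Llac-15h and 8.31, 7.86 and 7.88 in Llac-24h. In the high-dose groups the values were 7.55, 7.39 and 7.21 at 5 h, 6.73, 6.08 and 6.08 at 8 h, 5.18, 4.66 and 5.31 at 15 h and 5.5, 5.22 and 5.70 at 24 h. The lowest control was 7.13, the highest 8.48 and their median 7.77. It stepped down at 8 h and again at 15 h. Plekhb1 fell from 5 to 8 h (-1.08 ± 0.25, adjusted p = 0.00501) and from 8 to 24 h (-0.83 ± 0.25, adjusted p = 0.0113), and the doses differed by -2.54 ± 0.25 (adjusted p = 2.03e-08). Stard8, a RhoGAP (-1.92, at least 3.04-fold), the kinase gene Dclk3 (-1.69), the PDZ-LIM gene Pdlim2 (-1.39), Rassf4 (-0.89) and the SNARE gene Vamp8 (-0.43, at least 1.13-fold) were lower, and Plekha2 did not pass (-0.08, adjusted p = 0.789).

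For 10 members no role is given. 0610041G09Rik, the member with the widest span, was 11.08, 11.17 and 11.15 in Llac-15h and 9.44, 9.86 and 9.83 in Llac-24h. Under 1 µM 8.15, 8.35 and 8.29 were measured at 5 h, 7.10, 7.02 and 7.04 at 8 h, 6.39, 6.67 and 6.96 at 15 h and 7.34, 7.92 and 7.75 at 24 h. Untreated cultures gave 8.07 to 10.26, with 9.50 as the median. The high-dose values fell to 15 h and stood higher again at 24 h, still below all controls. The doses differed by -2.04 ± 0.41 (adjusted p = 2.51e-04). 3830431G21Rik (-2.22, at least 3.38-fold), Riiad1 (-1.11), 4932443I19Rik (-1.10, at least 1.35-fold), 4933428D01Rik (-1.02), Lrpb7 (-1.01), 2410008K03Rik (-0.88), Tmem205 (-0.72) and Tcta (-0.50) were lower at 24 h, and 1700023F06Rik did not pass (-0.40, adjusted p = 0.0733).

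**Figure D4:**
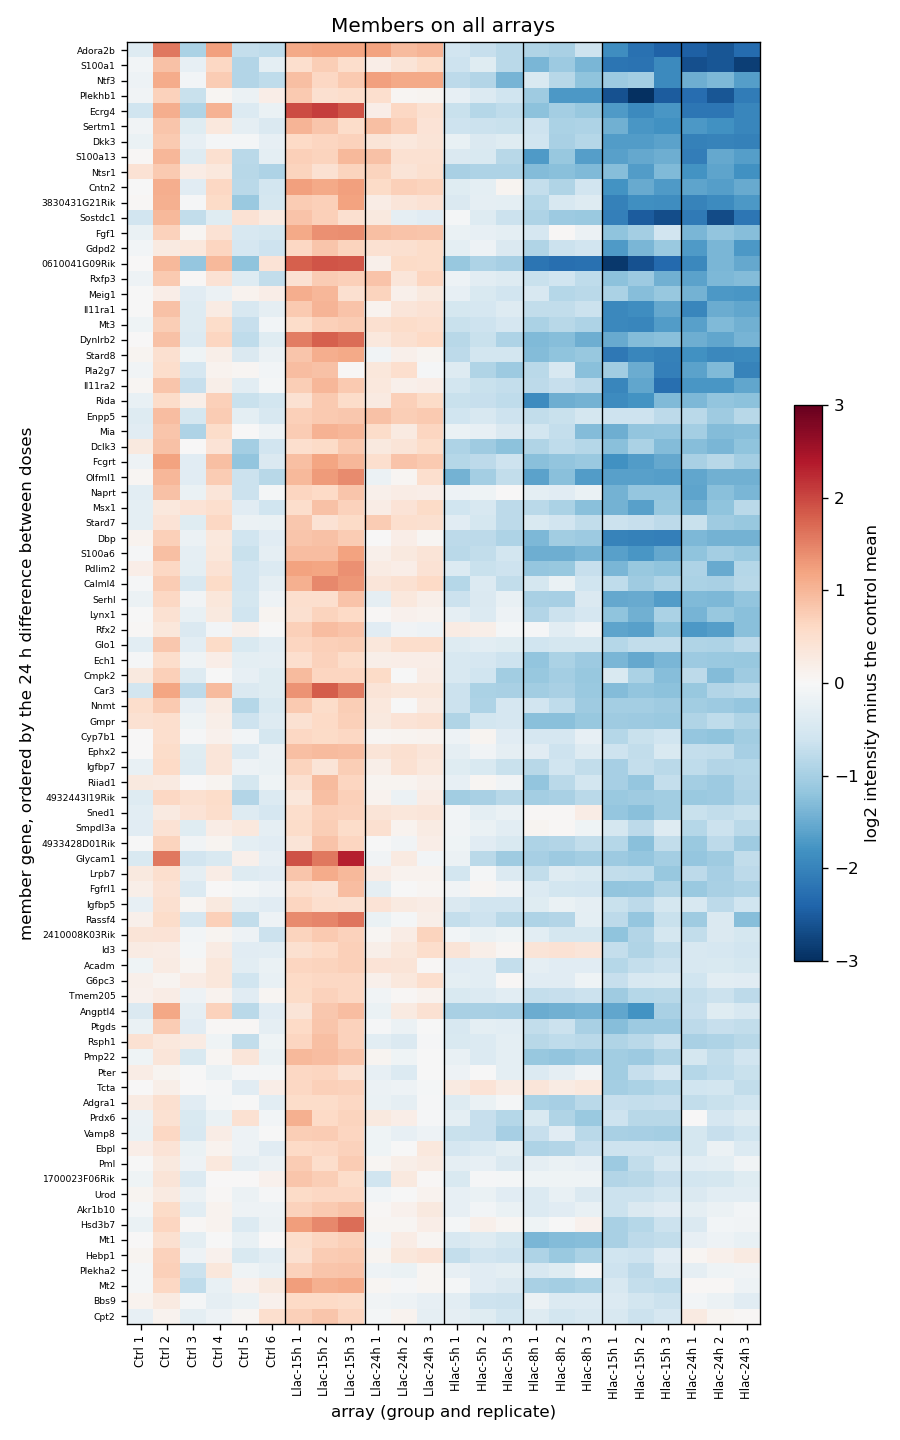
Rows are 84 of the 85 members, ordered from the most negative to the most positive difference between the doses at 24 h, and columns the 24 arrays by group and replicate; colour is log2 intensity minus the gene's control mean. Control replicate 2 is red in most rows, the Hlac-15h and Hlac-24h columns are blue in most, and the lowest rows (Mt1, Hebp1, Mt2, Cpt2) return to near white at 24 h.

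The steps within the high dose were smaller. From 5 to 8 h 12 members fell, against 8.30% of all genes, and none rose, against 9.24% (none at an unadjusted p under 0.05 either). All 3 Hlac-8h arrays lay below all Hlac-5h arrays in 42 members, against 21.2% of all genes. The median member differed by -0.30, and by -0.28, -0.21 and -0.29 within slides 1, 2 and 3. The 12 were Plekhb1, 0610041G09Rik, S100a13, S100a6, Rida, Mt1, Mt2, Pmp22, Riiad1, Adgra1, Stard8 and Ech1. The count depends on which arrays set the spread: it was 33 when only the 2 groups entered the fit and 5 to 9 when 1 of their arrays was left out (6 without Hlac-5h replicate 1 or 2 and 5 without Hlac-8h replicate 1).

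From 8 to 24 h 28 members fell, against 22.4% of all genes, and 7 rose, against 17.2%, with a median of -0.27 (all genes -0.042). Of the members that fell, 9 did so by 2-fold or more in the fitted values (2.57% of all genes), 1 of them (3830431G21Rik) with a bound under 2-fold, and in 43 members all 3 Hlac-24h arrays lay below all Hlac-8h arrays (31.5% of all genes). Within slides 1, 2 and 3 the medians were -0.36, -0.25 and -0.31. Among members detected in Hlac-24h the largest falls were in S100a1, Rfx2 (-1.37) and Sostdc1. Adora2b (at least 2.27-fold), 3830431G21Rik (at least 1.78-fold) and Stard8 (at least 1.28-fold) fell to a level not well above background, so their size has no exact value. The other members that fell included Dkk3, Naprt, Fgf1, Sertm1, Ecrg4, Il11ra1, Il11ra2, Id3, Tcta, Meig1, Gdpd2, Cntn2, Plekhb1, Sned1, Pla2g7, Smpdl3a, Rxfp3, Cyp7b1, Lynx1, Fgfrl1 and Pter. The 7 that rose were Hebp1, Mt1, Mt2, Angptl4 (0.93), Cpt2, Pmp22 (0.52) and Ebpl (0.47). Mt1, Mt2 and Pmp22 had fallen from 5 to 8 h and rose from 8 to 24 h. With median centring in place of quantile normalization the rises of Cpt2 (0.38, adjusted p = 0.150), Pmp22 (0.31, adjusted p = 0.245) and Ebpl (0.26, adjusted p = 0.216) no longer passed, while those of Mt1, Mt2, Hebp1 and Angptl4 did.

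The members resembled each other closely over the 7 group means, as the choice at 15 h favours. The Pearson correlation of a member with the mean of the set had a median of 0.951, with 0.693 in Hebp1 as the lowest and 0.993 in Pdlim2 as the highest. Among genes outside the set the 5 most like its mean over the 7 groups were Hint3 (r = 0.996), 4833408A19Rik (0.992), Sod2 (0.99), Hacd4 (0.99) and Eci1 (0.99). Since 3 of the 7 groups entered the choice of the set, these values are a description. Hint3, Sod2, Hacd4 and Eci1 were lower in Hlac-24h than in Llac-24h (-0.64, -0.33, -0.78 and -0.94; adjusted p = 3.72e-04, 0.0139, 4.98e-04 and 2.77e-05), and 4833408A19Rik did not pass (-0.31, adjusted p = 0.140).

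A further 38 probes measured 28 of the members, and 19 of these probes were detected on at least 3 arrays. Of those 19, 18 were higher in Llac-15h and lower in Hlac-15h than in the controls, and 15 were lower in Hlac-24h than in Llac-24h, counted by sign alone. The exception at 15 h was a dimmer probe of Stard7 (-0.22 at the low dose and 0.24 at the high dose). All these probes were read on the same arrays and RNA as the probes that chose the members. The 15 h count is thus a description only, and the 24 h count is not a separate observation. Within slides 1, 2 and 3, 51.5%, 50.9% and 50.6% of all genes tested were lower in Hlac-24h than in Llac-24h. The dimmer probes of Angptl4, Prdx6, Cpt2 and Akr1b10 stood at 0.17, 0.05, 0.085 and 0.13 between the doses at 24 h. For none of these 4 genes did the brighter probe pass the test. In called members, dimmer probes of Pmp22 (-0.076), Rida (-0.161) and Rassf4 (-0.275 and -0.114) differed less than the brighter ones (-0.59, -1.78 and -0.89). Those of Car3, Pdlim2, Serhl, Stard7, Lrpb7 and Pml did so too. The dimmer probes of Tmem205, Acadm, G6pc3 and Ebpl stood at -0.745, -0.718, -0.696 and -0.757, against -0.72, -0.76, -0.74 and -0.43.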

How the data were processed

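Each array measured biotin-labelled cRNA of 1 sample. The scanner table came out of BeadStudio, not normalized, per the file headers, and holds each gene's mean bead intensity and a detection score, a fraction from 0 to 1. The authors deposited the non-normalized intensity of 24691 probes (78 without values) and a normalized table with a linear ratio, which equals the intensity over the array median and then over the mean of the controls (largest difference 1.87e-05). Which background step the deposited signals had is not stated in the files or labels. The series matrix was not used.

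The 24 arrays lay on 3 slides of 8, each with 2 controls and 1 array of each treated group. Each treated group sat at 1 place of a slide throughout, and effects of place and of treatment cannot be told apart. The controls sat at places A and B, and over the members the control at B was the higher on each slide. Under each treated label the deposited values equal a scanner column of the same group from another slide, within 1e-06 for most of 14487 genes. Groups are unaffected, and slides are those of the matching column.

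The members and lists were chosen with earlier results of these data known, and the roles in the text were assigned after the values were seen. The members follow the rule in the opening (brightest probe per symbol). For tests, background was corrected with nec (offset 16, detection scores carried from genes with 1 probe), then quantile normalization and log2 were applied. A probe entered if 3 or more arrays detected it at the 0.01 level (13560 did), and the brightest probe of each of 10925 genes was tested. R 4.3.3 and limma 3.58.1 fitted 7 group means without a block (17 residual degrees of freedom), and p-values were adjusted over all genes. The 3 comparisons tested use no array of the rule. The fit was also run on simulated data with independent noise on each array. Those data hold no effect of slide or place, so they cannot show how the tests handle one. Among the treated groups, arrays of the same replicate number share a slide, so the slide as a block was an alternative. Slide 1 held control replicates 1 and 2 and treated replicate 2. Slide 2 held controls 3 and 4 and treated replicate 3, and slide 3 controls 5 and 6 and treated replicate 1. Deviations of same-slide arrays correlated at 0.067, 0.271 and 0.391 in the 24 h dose comparison. Genes with per-array values are the 8 widest spans, the members on lists, and the 5 most negative and 3 most positive members at 24 h. Current symbols and promoters are RefSeq's (GRCm38.p6): 77 members matched by accession, and 58 had a promoter. The values of 1 member, which stays in all counts and medians, are not reported here.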

Additional observations from a re-analysis of the deposited data

Results flagged for a closer look

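In 3 of the 85 members 1 control lay apart from the other 5 by more than the group's spread allows at the 95% level of Dixon's test, and in each it was control replicate 2: Dkk3 at a log2 intensity of 10.65 (other controls 9.61 to 9.81), Ptgds at 7.66 (6.56 to 6.92) and Glycam1 at 7.12 (4.96 to 5.67). Chance alone gives such a call in about 1 of 20 groups. The 85 members share the same 6 control arrays and are not independent, so that rate cannot be applied to these 3 calls. Control replicate 2 was the highest control in 69 of the 85 members, against 18% of all genes. In Adora2b, Ecrg4 and Car3, whose controls were not called apart, control replicate 4 stood high together with replicate 2 (8.23 and 8.58, 8.63 and 8.68, 6.88 and 7.11).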

How the results depend on the processing

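The members called lower in Hlac-24h than in Llac-24h numbered 69 to 79 under all 20 alternatives. The slide as a replicate block gave 75, adding Prdx6; from 5 to 8 h it gave 16, adding Fgfrl1, Gmpr, Ebpl and 4933428D01Rik, and from 8 to 24 h it added Prdx6, Serhl and Mt3; it changed no other member's call. The members lower at 8 than at 5 h numbered 12, but 7 on the authors' ratio table, 33 in a fit of only the groups compared, 37 with array weights, 35 without the control and 15 h arrays, 38 with the replicate block and the groups alone, and 5 to 9 without 1 array; higher members numbered 0, but 3 with array weights and 1 without the control and 15 h arrays. The members higher at 24 than at 8 h numbered 7, but 4 with median centring, 4 on the authors' table, 11 in a fit of the groups compared, 12 with array weights, 11 without the control and 15 h arrays, and 13 with the block and the groups alone. Median centring split all genes into 1040 higher and 3444 lower for that step (1876 and 2450 otherwise; median of all genes -0.201) and into 1248 and 325 from 5 to 8 h (1009 and 907). The authors' table gave 1185 and 3272, and 1462 and 495. At 24 h Mt2 and Bbs9 changed sign without passing the test: Mt2 to 0.031 with median centring, 0.006 on the authors' table and 0.005 without Hlac-24h replicate 3, and Bbs9 to 0.053, 0.025 and 0.034; without 1 array the lowest values were -0.087 and -0.092. No other member's 24 h difference and no called step within the high dose changed sign under these alternatives: at 24 h 8 genes lost their call and 6 gained one under at least 1 alternative, and of the calls within the high dose 8 of 12 from 5 to 8 h and 12 of 35 from 8 to 24 h were lost under at least 1. The rule gave 42 members at 0.5 and -0.6, 149 at 0.3 and -0.4, 179 after background correction and quantile normalization (84 shared) and 190 after cyclic loess (85 shared); without 1 array it gave 77 to 102 (65 to 85 shared), and without both controls of slide 3 it gave 81, of which 56 were shared. The fits without the control and 15 h arrays or with the block and the groups alone, the omission of the controls of slide 3, and the metal response and D-box motifs were chosen after seeing the data. Apart from what a setting removes by construction, the cause of these changes was not tested. Genes near the detection level are limited by signal over background.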
